A study of Capra hircus with 12 samples.

Results

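A set of 251 genes of the embryonic skin of the cashmere goat was chosen for being high in 1 embryo at E45 and in 1 embryo at E55 and far lower in the 2 other E55 embryos and in all 3 E65 embryos. They were chosen by their RPKM values (read numbers scaled by gene length and by the reads of the library). Each had at least 1 RPKM in both E45-1 and E55-2, and in both at least 8 times the largest value among E55-1, E55-3, E65-1, E65-2 and E65-3. They make up 1.23% of the 20486 genes in the table. The values of E45-2 and E45-3 were not used in the choice.

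Flank skin was taken from 9 unrelated Inner Mongolia cashmere goat embryos, 3 at each of the stages E45, E55 and E65, named after the embryonic day, and a separate library was made from the polyadenylated RNA of every embryo. No treatment or genotype is given for the groups, which are labelled by stage only. The stages cover the time around the start of primary hair follicle formation. The summed RPKM of a sample lay between 537791 in E45-1 and 602169 in E65-2, and the table holds no read count per gene. The study lists reads per library, but its rows order the libraries differently, with most raw reads in E65-2 and most aligned reads in E55-3, and in E55-3 the aligned reads exceed the filtered ones, so no order of depth was taken from them.

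The RNA of a tissue piece is the sum of the RNA of every cell in it. Embryonic skin holds an epidermis, a dermis rich in fibroblasts, vessels and nerves, and it borders on muscle and other tissues, so that what is carried along at dissection also enters the library. A gene made only in such a second tissue follows the amount of that tissue in each sample, and genes made only there keep the same proportions to each other from sample to sample as long as that tissue has the same makeup and expression in each of them, which embryos of different stages need not share. In bulk RNA, fewer cells of a type and less RNA per cell cannot be told apart. None of the 20486 identifiers, most of which carry an accession in place of a gene symbol, matched the RefSeq gene table used. A table that pairs these accessions with symbols was not used here. The cell type to which the genes belong was therefore not checked with markers, and neither was the labelled tissue, skin. The set is called the E45-1/E55-2 module here.

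The module held the 2 most abundant transcripts of E45-1 and of E55-2. The highest member, listed as GOAT_ENSBTAP00000000673_gene on chromosome 1, had 11764 RPKM in E45-1, 2010 in E45-2 and 301 in E45-3. At E55 it had 1.47 RPKM in E55-1, 8061 in E55-2 and 7.20 in E55-3, and at E65 it had 2.91, 2.26 and 0.69 RPKM. It was the most abundant gene of all in E45-1 and in E55-2, ranked 16 in E45-2 and 268 in E45-3, and ranked 12026 in E55-1. The E45 and E55 groups overlapped. The rule fixed the high values of E45-1 and E55-2 and the low values of the other E55 and the E65 embryos.

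The gene listed as GOAT_ENSBTAP00000022763_gene on chromosome 6 ranked 2 in the same libraries. Its values were 9504, 1635 and 249 RPKM in E45-1, E45-2 and E45-3, then 0.88, 5720 and 4.36 RPKM in E55-1, E55-2 and E55-3, and 0.22, 0.32 and 0.26 RPKM in the E65 embryos. Both of these genes were lower in E55-2 than in E45-1, as were 237 of the 251 members. The other 14 were at least as high in E55-2. The most abundant of them was GOAT_ENSBTAP00000034269_gene on chromosome 18, with 442.66 RPKM in E45-1 and 470 in E55-2, 66.3 in E45-2 and 20.4 in E45-3, and between 0.27 and 3.45 RPKM in the 5 low samples. The next was GOAT_ENSP00000407461_gene on chromosome 3, at a far lower level, with 12.75 RPKM in E45-1, 12.76 in E55-2, 3.58 in E45-2 and 0.69 in E45-3. It ranged from 0.20 to 0.83 RPKM in the 5 low samples, so its value in E45-3 lay inside their range.

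Of the 10 most abundant genes of E45-1, 5 belonged to the module, and of the 100 most abundant, 11. In E55-2 these numbers were 3 and 7, in E45-2 they were 0 and 5, and no member was among the 100 most abundant genes of any other sample. The bulk of the module was of moderate level. The median member had 11.5 RPKM in E45-1, where its median rank was 6448, and 7.70 RPKM in E55-2, where the median rank was 7796. The median was 3.06 RPKM in E45-2 and 0.50 RPKM in E45-3, and lay between 0.05 and 0.09 RPKM in the 5 low samples. A value of at least 1 RPKM was reached by 192 members in E45-2 and by 90 in E45-3, against 19 or 20 in each low sample.

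The summed RPKM of the module was 9.89% of the total in E45-1, 6.18% in E55-2, 1.98% in E45-2 and 0.358% in E45-3. It was 0.0696% in E55-3, 0.0526% in E65-3, 0.0424% in E55-1, 0.0322% in E65-1 and 0.0318% in E65-2. The sum rested on few genes, since the 3 highest members gave 52.1% of it in E45-1 and 50.7% in E55-2, and the 10 highest 78.0% and 77.5%. By stage, E45 had a share of 4.08% ± 5.10 (SD, n = 3). The share was 2.10% ± 3.53 (SD, n = 3) in the E55 embryos. E65 had 0.0389% ± 0.0119 (SD, n = 3). At E45 and E55 the SD was larger than the mean, and the difference between these stages was smaller than either SD.

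**Figure D1:**
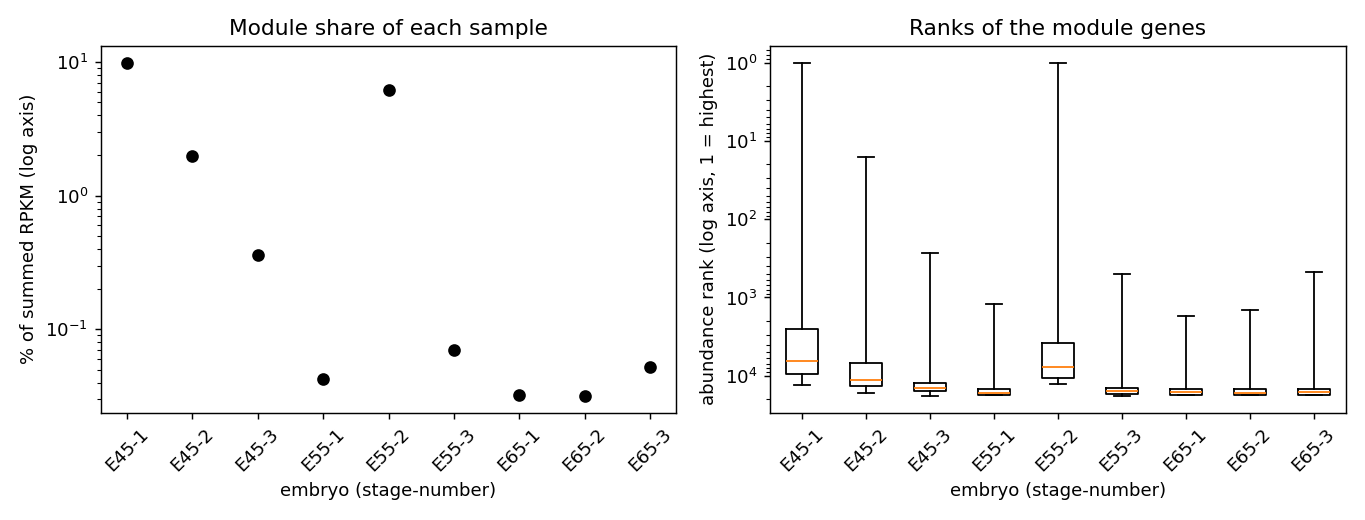
The left panel plots the share of the summed RPKM that the 251 module genes took in each embryo (percent, log axis), 1 point per library. The right panel plots the abundance ranks of the module genes among all 20486 genes (log axis, 1 is the highest; box, quartiles with the median; whiskers, full range), and E45-1 and E55-2 are the libraries in which the best rank is 1.

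The 2 samples that the rule did not use fell between the high and the low libraries. In E45-2 all 251 members were above the largest of the 5 low samples, and in E45-3 206 were (82.1%). Among the 12377 other genes with at least 1 RPKM in E45-1 and E55-2, these shares were 36.3% and 25.8%. The full criterion of 1 RPKM and 8 times the largest low value was met by 151 members (60.2%) in E45-2 and by 46 (18.3%) in E45-3, against 2.27% and 1.62% of all genes. The order E45-1, E55-2, E45-2, E45-3 and then the 5 low samples, from high to low, held for 172 members (68.5%). The rule places E45-1 and E55-2 above the 5 low samples in every member and keeps the members low there, so the comparisons with other genes are in large part built in. They are descriptions and were not tested.

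**Figure D2:**
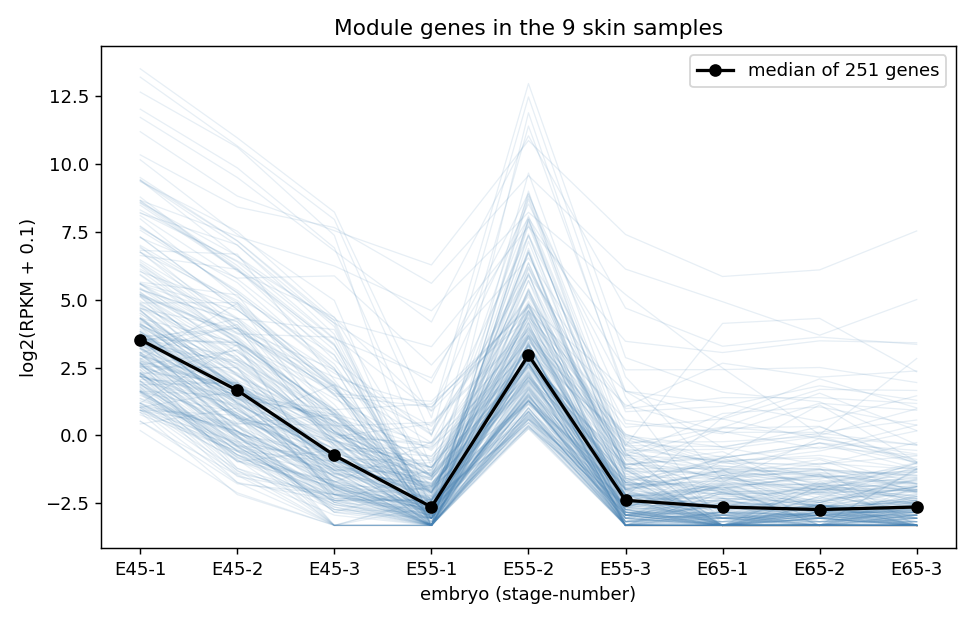
Each blue line joins the log2(RPKM + 0.1) values of 1 module gene in the 9 embryos, and the black points are the medians of the 251 genes. The lines only connect values of the same gene, since the embryos of a stage have no order; the medians are highest in E45-1 and E55-2, intermediate in E45-2 and E45-3, and low in the other 5 embryos.

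The median member had 65.2% of its E45-1 level in E55-2 (quartiles 57.8% and 73.5%), and the summed RPKM gave the same ratio, 65.2%. On the log2(RPKM + 0.1) scale the median ratio of E55-2 to E45-1 was -0.61 with an SD of 0.32 over the 251 members, and 249 members (99.2%) lay within 2-fold of the median ratio. The 12377 other genes had a median ratio of 0.00 with an SD of 0.46, and 95.8% of them lay within 2-fold. The SD shrank with abundance. It was 0.38 in the 136 members of 1 to 10 RPKM (geometric mean of E45-1 and E55-2), 0.23 in the 81 members of 10 to 100 RPKM and 0.21 in the 34 members of at least 100 RPKM, while the median proportion was 65.6%, 63.8% and 66.8% in the same order. Both libraries were used in the choice. The rule removes genes that pass in E45-1 but are low in E55-2 (78 genes, against 5 that passed in E55-2 only), which narrows the ratio, and the other genes were under no such bound. The SD and the share within 2-fold are therefore in part built in and are given as a description.

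In E45-2 the median member had 20.3% of its E45-1 level (quartiles 15.7% and 35.2%), and in E45-3 3.25% (quartiles 2.40% and 5.85%). The ratios of the sums were 20.9% and 3.68%. The scatter was wider than in E55-2, with an SD of the log2 ratio of 1.00 in E45-2 and 1.10 in E45-3. Here the other genes scattered less, at 0.60 and 0.71. Within 2-fold of the median ratio lay 190 members (75.7%) in E45-2 and 188 (74.9%) in E45-3. Most departures were on the high side, and most of those were in low-level genes. In E45-3 this is in part built in. The added 0.1 RPKM raises the ratios of low-level members there and keeps some of them from falling 2-fold below the median. In E45-2, 49 members were more than 2-fold above the median ratio and 12 more than 2-fold below it, and 39 of the 49 were among the members of 1 to 10 RPKM. In E45-3 these numbers were 45 and 18, with 38 of the 45 in the same class. The 18 below were not mainly of low level. They were 4 of the 34 members of at least 100 RPKM, 10 of the 81 of 10 to 100 RPKM and 4 of the 136 of 1 to 10 RPKM. In both samples 24 members were more than 2-fold above.

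The 34 members of at least 100 RPKM had an SD of the log2 ratio to E45-1 of 0.42 in E45-2 and 0.94 in E45-3. Within 2-fold of the median ratio of all 251 members lay 97.1% of the 34 in E45-2 and 79.4% in E45-3, where 3 were above and 4 below that range. A subset of 26 of the 34, selected after the values had been seen, left out the 8 that reached 1% of their E45-1 level in any low sample. In E55-2 these 26 had 53.3% to 106% of the E45-1 level, with a median of 64.7%. In E45-2 the range was 12.6% to 44.6% around 19.0%, and in E45-3 it was 2.11% to 4.61% around 2.68%. The SD of the log2 ratio was 0.23, 0.37 and 0.27 in these samples, which describes the subset only. The levels of the subset ran from 82.6 to 8061 RPKM in E55-2 and from 2.71 to 301 RPKM in E45-3. Marker genes of a second tissue were not analysed here, since the identifiers matched no entry of the RefSeq gene table used, and the part of tissue carried along at dissection in this pattern was not tested.

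**Figure D3:**
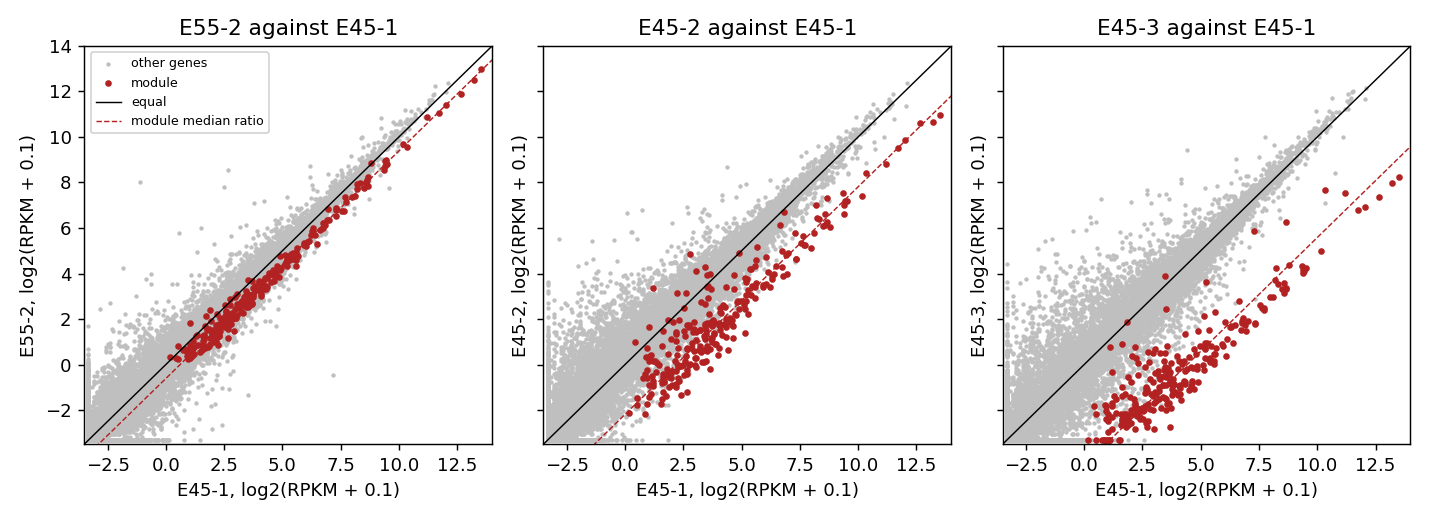
Each point is a gene, with its log2(RPKM + 0.1) in E45-1 on the x axis and in E55-2, E45-2 or E45-3 on the y axis; module genes are red, the black line marks equal levels and the dashed line the module's median ratio. The red points follow the dashed line most closely in E55-2 (SD 0.32 on the log2 scale) and more loosely in E45-2 (1.00) and E45-3 (1.10). Most of the red points far above the line are low-level genes, which in E45-3 is in part built in by the added 0.1.

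Some members did not share the common proportion. The most deviant in E45-2, on chromosome 19, had 10.08 RPKM there against 2.18 in E45-1 and 1.29 in E55-2, with 0.69 in E45-3. The most deviant in E45-3, on chromosome 17, had 14.84 RPKM there, 19.7 in E45-2, 10.86 in E45-1 and 7.11 in E55-2, and at most 0.22 in the low samples. The second gene thus differed by less than 2-fold among the 3 E45 embryos, unlike the main group. In all, 12 members were at least as high in E45-2 as in E45-1, and 2 in E45-3. In the ratio of E55-2 to E45-1 only 2 members were more than 2-fold from the median, both above it. The farther, on chromosome 18, had 3.44 RPKM in E55-2 and 1.98 in E45-1.

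Another kind of departure was a raised level in the 5 low samples. The largest low value was below 1 RPKM in 222 members and at least 10 RPKM in 6, and 8 members were listed at 0 in all 5. The sixth most abundant member, on chromosome 15, had 57.96 to 185.87 RPKM in the low samples, next to 2354 in E45-1, 1879 in E55-2, 454 in E45-2 and 187 in E45-3. Its E45-3 value was just above the highest E65 value. The seventh, on chromosome 13, had 12.84 to 70.02 RPKM in the low samples, 1302 in E45-1 and 203 in E45-3. Such genes were also expressed in the libraries in which the rest of the module was near 0. When the median of the 5 low samples was taken off every value, the median proportion of E45-1 was 64.7% in E55-2, 19.7% in E45-2 and 2.77% in E45-3. These medians are close to the values above, and 21 members in E45-3 were then not above 0. The scatter did not become smaller. The SD of the log2 ratio was 0.33, 1.09 and 1.39 in the same order, without the added 0.1 and over members above 0. Before, with the added 0.1 and over all members, it was 0.32, 1.00 and 1.10.

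Among the 5 low samples, E55-3 had the highest median level in the most abundant members. The rule used these 5 samples and bounds their values from above, so what follows is a description only. In the 34 members of at least 100 RPKM the median level was 0.0970% of E45-1 in E55-3, against 0.0183% in E55-1, 0.0295% in E65-1, 0.0294% in E65-2 and 0.0114% in E65-3. E55-3 was the single highest of the 5 low samples in 25 of these 34 members. None of the 34 was at 0 in it, while 8 to 12 were at 0 in each of the other low samples. The part of library depth in these zeros was not tested. The samples lay closer together in lower members. In the 81 members of 10 to 100 RPKM the median was 0.460% in E55-3 and 0.350% to 0.452% in the other low samples. In the 136 members of 1 to 10 RPKM it was 0.909% in E55-3 and 0.660% to 0.846% in the others. Over all 251 members E55-3 was the single highest of the 5 in 76, and the 4 other samples in 33 to 41 each. Levels in these samples are near the second decimal to which the values were rounded, so the proportions of low members could not be followed there.

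Across the 251 members, Pearson's r of log2(RPKM + 0.1) between E45-1 and E55-2 was 0.992, against 0.972 over the 12377 other genes. The r between E45-1 and E45-2 was 0.923, and between E45-1 and E45-3 0.903. E55-3 correlated with E45-1 at 0.678, whereas E55-1 and the E65 samples did so at 0.467 to 0.485. Points of this correlation are genes of the same pair of libraries, chosen to be high in E45-1 and E55-2, so r is a description only. In an additive fit with a level per gene and a factor per sample, the factors left 16.7% of the module's variance about the gene means, over the 9 samples, and 97.5% of that of the other genes. With the 4 samples E45-1, E45-2, E45-3 and E55-2 alone these values were 11.9% and 95.5%. The rule itself sets E45-1 and E55-2 high in every member, and both fits hold these samples, while the other genes were under no such bound. The contrast with the other genes is therefore largely built in, over 9 samples and over 4, and is a description only.

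Removing the module changed how like the libraries were on the RPKM scale. Its genes were chosen for being high in E45-1 and E55-2 and include the 2 most abundant transcripts of each. A rise in r between these libraries and the others is therefore largely built in, and the values are a description only. Pearson's r across all genes between E45-1 and E45-2 was 0.763 with the 251 genes and 0.957 without them, and between E45-1 and E45-3 it was 0.655 and 0.962. Between E45-1 and E55-2 it was 0.944 and 0.979. On the log2(RPKM + 0.1) scale, where single abundant genes weigh less, E45-1 and E55-2 had an r of 0.979 with and without the module. With the module left out, E45-1 had an r of 0.970 with E55-3, 0.966 with E45-2, 0.962 with E55-1 and 0.961 with E45-3. On the RPKM scale without the module these values were 0.928, 0.957, 0.935 and 0.962, so the order of the embryos after E55-2 depended on the scale. E55-2 had an r of 0.979 with E55-3, 0.978 with E55-1, 0.957 with E45-2 and 0.954 with E45-3 on the log2 scale, and of 0.967, 0.969, 0.947 and 0.968 on the RPKM scale. On the latter, E45-3 was thus as near to it as the other E55 embryos. With the E65 embryos, E55-2 had an r of 0.953 to 0.968 on the log2 scale and of 0.880 to 0.910 on the RPKM scale. For E45-1 and the E65 embryos these ranges were 0.938 to 0.952 and 0.863 to 0.891.

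Members were found on all 30 chromosomes of the table, the autosomes 1 to 29 and X. The number of members per chromosome followed the number of listed genes, with r = 0.780 over the 30 chromosomes as a description. The largest numbers were 18 on chromosome 3, 18 on chromosome 18 and 17 on chromosome 5. As a share of the genes of a chromosome they ranged from 0.202% on chromosome 14 (1 of 495 genes) to 2.24% on chromosome 28 (7 of 313 genes), and X had 1.84% (14 of 760 genes). No chromosome held more than 7.17% of the members. The abundance was less spread than the genes. Chromosome 6 gave 31.0% and chromosome 1 30.2% of the module's summed RPKM in E45-1, through the members that rank 1, 2, 3 and 5 within the module. The 34 members of at least 100 RPKM were on 16 chromosomes. The table gives no positions within chromosomes, so the distances between members were not analysed here.

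**Figure D4:**
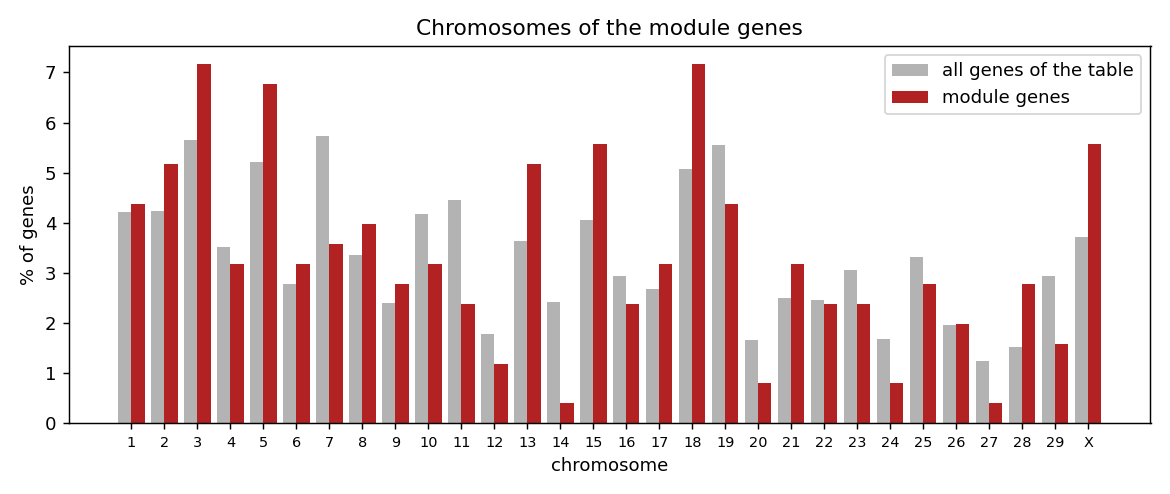
Bars show, for each chromosome, the percentage of all 20486 listed genes (grey) and of the 251 module genes (red) that it holds. Every chromosome has at least 1 module gene, and the highest red bars, chromosomes 3 and 18, stand at 7.17%.

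The edge of the rule was not a gap in the values. Of the genes with at least 1 RPKM in both high libraries, 73 reached 4 but not 8 times the largest low value and 51 members reached 8 but not 16 times. The member nearest to the edge, on chromosome 15, had 3.25 RPKM in E45-1 and 4.23 in E55-2 against at most 0.40 in the low samples, a smaller ratio of 8.13. The nearest gene outside, on chromosome 5, had 4.03 and 2.06 RPKM against at most 0.26, a smaller ratio of 7.92. At the other end, 75 members exceeded the largest low value by at least 100-fold in both libraries and 13 by at least 1000-fold, without the 8 members listed at 0 in all 5 low samples, for which no fold is given.

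The 2 libraries did not contribute alike to the choice. The criterion was met by 329 genes in E45-1 and by 256 in E55-2. The shared 251 are 76.3% of the first and 98.0% of the second. The 78 genes that passed in E45-1 only had a median of 3.29 RPKM there and 1.42 RPKM in E55-2, and 31 of them missed the rule because E55-2 was under 1 RPKM. Beyond the rule, 77 of 16353 other genes with a mean of at least 0.1 RPKM had a profile over the 9 samples that correlated at 0.95 or more with the mean log2 profile of the module. So did 200 of the 251 members, which is built in, since the profile is their own mean and the rule fixed the high and the low samples in it. Of these 77, 19 passed in E45-1 only, and 22 were under 1 RPKM in at least 1 of the high libraries.

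The stage comparisons of the study were run here on all 16604 genes with a mean of at least 0.1 RPKM, with limma on log2(RPKM + 0.1). The study itself used edgeR, so the calls given here are not those of its gene lists. The threshold for a call was an adjusted p (Benjamini-Hochberg) of 0.05 together with a change of 2-fold or more in either direction. All samples but E45-2 and E45-3 were used to choose the members, so the counts are descriptions from which nothing is read. In E65 vs. E45, 65 of the 251 members were called decreased and none increased, beside 9.21% decreased and 4.90% increased among all genes tested. In E65 vs. E55, 1 member was called decreased and none increased, beside 3.07% and 2.11%. In E55 vs. E45 no member was called by limma, although 15 had an unadjusted p under 0.05, beside 0.494% decreased and 0.397% increased genes. The members had a median log2 fold change of -3.75 in E65 vs. E45, where all genes tested had -0.07. In E65 vs. E55 these medians were -1.76 and 0.06, and in E55 vs. E45 -1.97 and -0.12.

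The member called in E65 vs. E55 lies on chromosome 18, and was singled out after its values were seen. It had 24.09, 299.62 and 36.57 RPKM in E55-1, E55-2 and E55-3 and 5.49, 0.92 and 7.03 RPKM in the E65 embryos. These samples were used in the choice of the gene, so its values and its call are a description, with no p given. Under 6 other settings 1 member was called in this comparison, and under 9 no member was, among them the fit with the replicate number as a block (0 members called). In E45 it had 407.65, 161.99 and 75.92 RPKM. Unlike most of the module it was therefore well above 1 RPKM in every E45 and E55 embryo. The calls of E65 vs. E45 depended on single embryos as well. There were 15 without E45-1, 11 without E45-2, 104 without E45-3 and 173 without E55-2. Among all 16604 genes tested, 1783, 989, 1146 and 1592 were called decreased in the same order. Without any one of the E65 embryos 9 members were called, beside 897 to 1045 decreased genes. In E55 vs. E45, 58 members were called decreased without E55-2, beside 177 decreased among all genes tested.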

How the data were processed

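Polyadenylated RNA of 9 embryos (3 each at E45, E55 and E65) was sequenced. Reads were filtered with the FASTX-Toolkit and aligned to the goat genome with TopHat, and the authors deposited RPKM values rounded to 2 decimals, from uniquely aligned reads (the methods say FPKM). The genome build is not given in the sources used here, and the deposited table holds no read counts per gene, although the study lists total reads per library. The 3 pooled small RNA libraries were not used. All 9 columns were mapped by title, and 0 were left unmapped.

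The members were found on the RPKM as deposited. The members and lists were chosen with earlier results of these data known. Ranks, proportions and the additive fit were computed in Python 3.11.15 (pandas 2.3.3, numpy 2.4.6) and drawn with matplotlib 3.10.9. Genes with a mean of at least 0.1 RPKM were fitted on log2(RPKM + 0.1) in limma 3.58.1 (R 4.3.3) by stage, using a mean-variance trend and Benjamini-Hochberg adjustment, and the script was tested on simulated data. Fold changes on this scale understate changes of low genes. Replicates are separate embryos.

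Identifiers were to be named by symbol with marker lists for muscle, neuron, glia, cartilage, erythroid, liver, epidermal and dermal cells. As 0 identifiers matched the RefSeq gene table, no list gave a value, and 4 identifiers are printed: the 2 most abundant members that are lower in E55-2 than in E45-1, and the 2 most abundant that are not.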

Additional observations from a re-analysis of the deposited data

How the results depend on the processing

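The number of members (251) was 324 with a 4-fold and 200 with a 16-fold threshold, and stayed within 1.5 times under all 10 alternatives. The median and the SD of the ratio of E55-2 to E45-1 stayed within 1.5 times under the 9 alternatives run for each. These did not include the 4-fold and 16-fold thresholds. They included the ratio after the low level was taken off, which was added after the data had been seen. The variance left after gene and sample effects was 12.1% of the total, gene levels included, and became 19.9% with pseudocount 1.

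In E65 vs. E45 the 65 members called became 21 with pseudocount 1 and 145 in a fit of the 6 samples of both stages only. Among all 16604 genes tested the decreased calls were 1530, 968 and 1411 in the same order. In E65 vs. E55 the 1 member called became 0 when low genes were not filtered out, 0 with the replicate block and 0 in the 6 samples. With 1 embryo left out, E65 vs. E45 had 9 to 173 members called, E65 vs. E55 had 0 or 1, and E55 vs. E45 had 0 to 58, where the 58 came without E55-2. The decreased calls among all genes tested ranged from 897 to 1783, from 91 to 597 and from 0 to 1069 in the same order. The cause of these changes was not tested. With the replicate number as a block 73 members were called in E65 vs. E45, beside 1511 decreased among all genes tested. Same-numbered samples share only the number: their residuals correlated at -0.30 to 0.41 over 9 pairs. The RPKM table holds no read counts per gene and is rounded to 2 decimals, which limits what can be said of levels near 0.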
